A study of Caenorhabditis elegans with 9 samples.

Results

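Sorted oocyte P-bodies were compared with dissected whole oocytes across all protein-coding mRNAs of Caenorhabditis elegans. The comparison used the 6 libraries labelled as sorted P-bodies (3) or as whole oocytes (3), out of 9 in the series, and the arrested oocyte was the reference. Of the 19725 protein-coding genes counted, 9622 passed the filter on low counts and were tested, and the other 10103 were not. The 3 remaining libraries, extracts of whole animals, also entered the filter, the scaling factors and the estimate of the spread. Their levels are given only for markers and for some genes. All groups came from females with a fog-2 mutation that carried CAR-1 tagged with GFP and PGL-1 tagged with RFP. The labels give their stage both as L4 and as oocyte arrest, and their time as day 3. The sort of the P-bodies is named FAPS in the labels. Oocytes were taken by dissection, and whole animals underwent neither step. The labels do not state whether replicates are separate cultures or animals, so each p-value reflects the spread among these libraries alone, and that spread may be technical. In such bulk samples fewer granules and less RNA per granule cannot be told apart.

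P-bodies are cytoplasmic granules of RNA and protein that hold mRNAs with translational repressors and with the enzymes that remove caps and tails. In oocytes, where transcription has ceased, related granules hold maternal mRNAs whose translation waits for maturation or fertilization. CAR-1 is an RNA-binding protein of these granules, CGH-1 is its helicase partner, and PGL-1 belongs to the germ granules, a separate class of RNA granule.

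The make-up of the libraries set the scale of every value. The 6 libraries held 27946955 to 78685226 counts, but ribosomal RNA took 86.8% to 88.8% of them in oocytes and 29.8% to 38% in P-bodies. Protein-coding counts were therefore 3566621 to 7905996 in oocytes and 45262531 to 54937023 in P-bodies, and weakly expressed genes were measured less precisely in oocytes. P-body libraries were also more alike (median absolute log2 difference 0.15 to 0.232) than oocyte libraries (0.334 to 0.396), and the part of their greater depth in this was not tested. Pairs across the groups differed by 0.791 to 0.977, by this measure more than any pair within a group. By Pearson correlation of log2 levels, pairs of oocyte libraries (0.9202 to 0.9478) overlapped the pairs across groups (0.8865 to 0.9293). Pairs of P-body libraries had 0.9884 to 0.9923. Markers of intestine summed to 4190, 10400 and 15000 CPM of protein-coding counts in the oocyte libraries, 2270 to 4190 in P-bodies and 86800 to 99200 in whole animals. Muscle markers summed to 739 to 1820, 219 to 254 and 3580 to 4440, and markers of gonadal sheath and spermatheca to 2330 to 2380, 977 to 1000 and 2600 to 3130. The last sum varies by member, and whether its members are expressed only in those cells was not tested. In P-bodies fln-1 (30330, 35275 and 30903 counts) and sfa-1 (9540, 12891 and 10199) had the most counts, and inx-8 had 71, 80 and 74. Markers of oocyte and germline stood at 25200 to 26100 in oocytes, 27500 to 28600 in P-bodies and 20000 to 21000 in whole animals. This sum too varies by member. With the TMM factors described below, 8 of its 18 genes were higher in P-bodies and 5 lower, with log2 fold changes from 1.85 (spn-4) to -4.49 (perm-2). Neuronal markers summed to 90 to 112 in oocytes, 85.8 to 108 in P-bodies and 220 to 258 in whole animals. Those of hypodermis and cuticle summed to 183 to 499, 273 to 331 and 764 to 1000. In P-bodies lin-26 had the most counts of that list (13277, 13466 and 13602). Of its 8 members tested 3 were lower on the same scaling (col-19 at -3.09, col-140 and col-119 at -2.63) and 1 higher (lin-26, 0.95). Among neuronal markers snb-1 had the most counts in P-bodies (3479, 3263 and 2808). Some members of both lists (rab-3, flp-1, dpy-7, bli-2, dpy-13) and most of the sperm markers had no count in any oocyte library, where protein-coding depth was lower. Other members were counted there, such as col-119 (659, 186 and 147 counts) and snb-1 (306, 271 and 591).

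Because of the ribosomal RNA, each change depends on what it is measured against. CPM values below are counts relative to library size, scaled by TMM factors (0.576 to 0.719 in oocytes, 3.64 to 3.81 in P-bodies), which set the typical gene to no change. A rise or fall is thus relative to the typical mRNA, and the log2 value with library totals alone, which keeps ribosomal RNA in the denominator, stands beside each fall. That scaling raised the median protein-coding gene from a log2 fold change of -0.02 to 2.48. The plot of fold changes on both scales shows this shift.

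**Figure D1:**
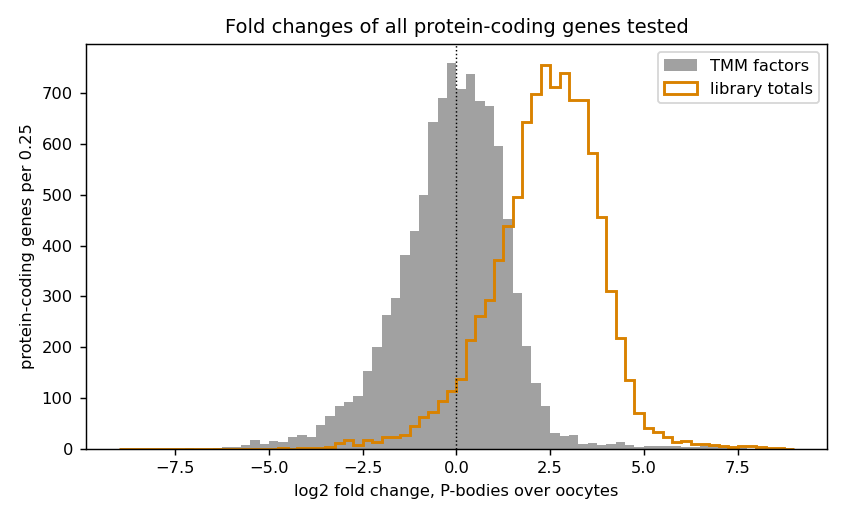
Number of protein-coding genes (vertical axis, per step of 0.25) by log2 fold change of P-bodies over oocytes (horizontal axis), with TMM factors in grey and with library totals in orange, for the 9622 genes tested. The medians are -0.02 and 2.48.

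Relative to the typical mRNA, about as many messages were called higher as lower, and this balance goes with a scaling that sets the typical gene to no change. On protein-coding totals 2403 were higher and 2780 lower. At an adjusted p under 0.05, 2679 genes were higher in P-bodies (27.8% of those tested) and 2652 lower (27.6%). At least 2-fold changes were 1499 higher (15.6%) and 1654 lower (17.2%), and at least 4-fold changes 267 higher (2.77%) and 773 lower (8.03%), so the lower side had the longer tail. The quartiles of the log2 fold change were -0.92 and 0.83, and the 5th and 95th percentiles -2.63 and 1.89. On library totals P-bodies exceeded oocytes for 7894 genes (82.0%) and lay below them for 163 (1.69%), and 79.8% and 1.12% differed at least 2-fold. The authors' TPM, which also count ribosomal RNA, gave 69.4% higher and 1.42% lower of 11516 genes on log2(TPM + 1), or 55.9% and 0.677% at least 2-fold. All 2679 genes higher relative to the typical gene were also higher with library totals, whereas of those lower 163 stayed lower and 1738 (18.1% of genes tested) were called higher. Without overlap between the libraries of both groups were 3229 genes with P-bodies higher (33.6%) and 2571 with oocytes higher (26.7%).

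Large changes are described for nuclear genes with a class symbol that average 50 CPM or more in one group and do not overlap between groups, leaving out msp, his, rpl and rps genes. The largest rise among them was that of hpk-1, which encodes a homeodomain-interacting protein kinase (WBGene00001994, X 4210573 to 4217290). It stood at 11.6, 12.8 and 13.9 CPM in the oocyte libraries and at 58.7, 63.4 and 63.1 CPM in the P-body libraries, a log2 fold change of 2.27 ± 0.13 (SE, adjusted p = 3.26e-08). Next came mbk-1, a kinase of the DYRK family (WBGene00003149, X 14819909 to 14824540), at 17.5, 15.9 and 13.2 CPM in oocytes and 69.2, 72.6 and 77.2 CPM in P-bodies (2.24 ± 0.12, adjusted p = 2.55e-08). Its relative mbk-2, the kinase that marks maternal proteins for removal at the passage from egg to embryo (WBGene00003150, IV 13009116 to 13035955), was more abundant. It stood at 102, 96.3 and 110 CPM in oocytes and 443, 449 and 478 CPM in P-bodies (2.15 ± 0.10, adjusted p = 1.16e-08). Separation of both groups was a condition of the choice of these 3 genes. Whole animals had 91.1 ± 0.562 CPM of mbk-2, near the oocytes.

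Other genes with rises of similar size have varied roles. The message of mom-4, a MAP kinase kinase kinase of Wnt signalling, stood at 13.2, 9.26 and 17.6 CPM in oocytes and 63.9, 57.6 and 68.9 CPM in P-bodies (2.23 ± 0.19). Those of gap-2, a Ras GTPase-activating protein (2.18 ± 0.10), num-1, the homolog of Numb (2.17 ± 0.10), and inx-3, a gap junction innexin (2.03 ± 0.11), rose alike. So did hrdl-1, related to the ubiquitin ligase HRD1 (2.17 ± 0.11), and fath-1, a fatty acid hydroxylase (2.16 ± 0.14).

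The other members of the 12 were rbr-2, let-607 and dcap-2. The message of rbr-2, a demethylase of lysine 4 on histone H3 (WBGene00004319, IV 10920075 to 10926807), stood at 126, 131 and 114 CPM in oocytes and 457, 548 and 552 CPM in P-bodies (2.07 ± 0.11, adjusted p = 2.55e-08). That of let-607, a bZIP factor of the CREB3 family (WBGene00002783, I 6574004 to 6585510), stood at 59.1, 58.7 and 61.2 CPM in oocytes and 240.0, 285 and 259 CPM in P-bodies (2.13 ± 0.10, adjusted p = 1.25e-08). That of dcap-2, the decapping enzyme itself found in P-bodies (WBGene00003582, IV 13513369 to 13521870), went from 41.9, 34.7 and 43.9 CPM to 159, 171 and 172 CPM (2.05 ± 0.11, adjusted p = 1.99e-08). The 12 changes lay between 2.03 and 2.27, a narrow range, and with library totals between 4.54 and 4.77. Of these 12 genes 8 overlap another protein-coding gene (hpk-1, mom-4 and let-607 on the same strand, gap-2, mbk-2, rbr-2, dcap-2 and inx-3 on the opposite one), and their values are uncertain because the strand setting of the counting is not given. Of all genes tested 31% overlap another. Among the 6641 that do not, 27% were higher and 28.2% lower.

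**Figure D2:**
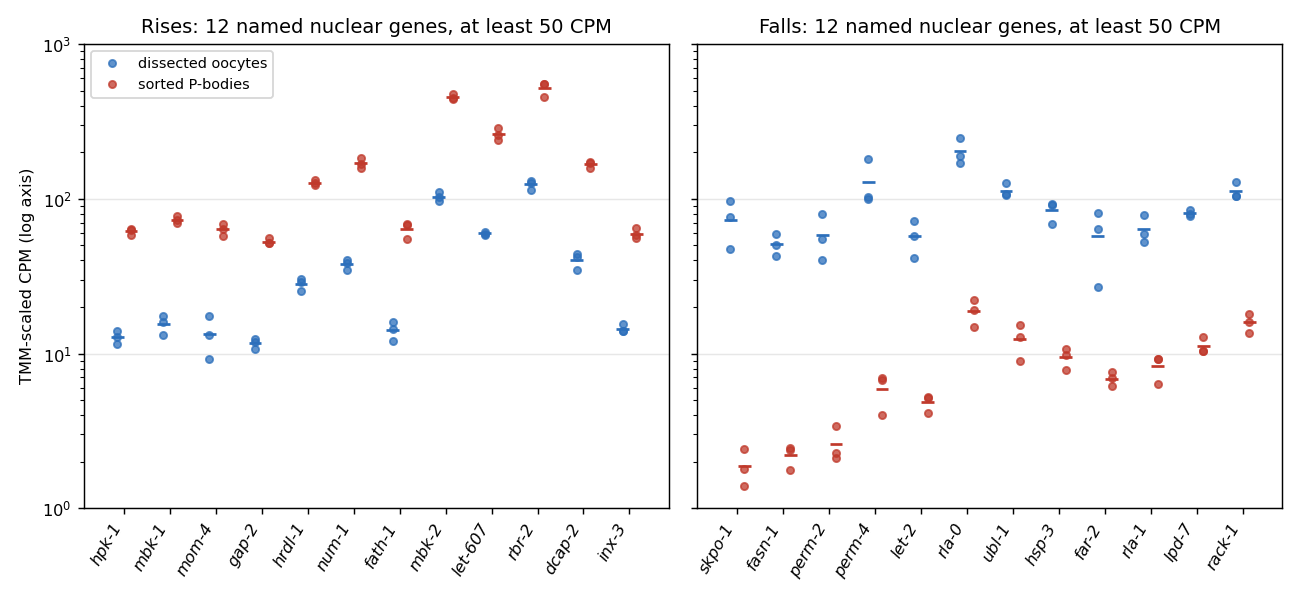
TMM-scaled CPM (vertical log axis) of the 12 genes with the largest rise (left) and the 12 with the largest fall (right) among nuclear genes with a class symbol that reach 50 CPM in whichever group is higher and do not overlap between groups, without msp, his, rpl and rps genes. Points are single libraries (oocytes blue, P-bodies red) and lines are means of 3, and separation of the groups was a condition of the choice.

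Among nuclear genes chosen in the same way, the largest fall was that of skpo-1, which encodes a peroxidase (WBGene00009897, II 8400299 to 8404848), at 76.4, 47.4 and 96.3 CPM in oocytes and 1.80, 2.40 and 1.40 CPM in P-bodies. Its log2 fold change was -5.30 ± 0.31 (adjusted p = 8.35e-07), and -2.77 with library totals. The fatty acid synthase message fasn-1 (WBGene00009342, I 8975384 to 8986534) stood at 50.6, 59.6 and 42.8 CPM in oocytes and 2.44, 2.37 and 1.77 CPM in P-bodies (-4.54 ± 0.16, adjusted p = 4.10e-09, and -2.03 with library totals). Separation of both groups and the size of the fall were conditions of the choice of these genes too.

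The genes perm-2 and perm-4, needed for the permeability barrier of the eggshell, lie close together on chromosome IV (1126790 to 1128848 and 1121457 to 1125107). The message of perm-4 stood at 103, 99.5 and 181 CPM in oocytes and 6.94, 6.75 and 3.99 CPM in P-bodies (-4.44 ± 0.31, adjusted p = 3.07e-06, and -1.94 with library totals). That of perm-2, uncertain through an overlap on the opposite strand, stood at 54.7, 40.1 and 79.8 CPM in oocytes and 3.42, 2.1 and 2.29 CPM in P-bodies (-4.49 ± 0.32, and -1.98 with library totals). For both genes the third oocyte library was the highest. Another eggshell message, cbd-1, which encodes a chitin-binding protein, fell by 0.62 ± 0.12 relative to the typical gene but lay at 1.89 with library totals. Of 26 genes of the eggshell, yolk uptake and egg activation 15 fell and 6 rose, with a median of -0.46 (2.04 with library totals). The chitin synthase chs-1 was among the rises (0.60 ± 0.10, adjusted p = 0.0003, uncertain through an overlap on the same strand).

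The type IV collagen let-2 (WBGene00002280, X 16380597 to 16389371) stood at 72.2, 57.7 and 41.7 CPM in oocytes and 5.16, 5.26 and 4.12 CPM in P-bodies (-3.56 ± 0.25, and -1.03 with library totals). It stood at 137 ± 36.1 CPM in whole animals and is one of the markers of gonadal sheath and spermatheca. Of 10 tested genes on that list 8 were lower (inx-8 at -5.45) and 1 higher (sfa-1, 0.46) in P-bodies. Whether each is specific to those cells, and the part of sheath RNA in the fall of let-2, were not tested. The fatty acid and retinol-binding protein far-2 stood at 81.1, 27.1 and 63.4 CPM in oocytes, 7.55, 6.91 and 6.20 CPM in P-bodies and 208 ± 24.4 CPM in whole animals (-3.06 ± 0.37, and -0.50 with library totals, adjusted p = 0.0751). The oocyte library with the least far-2 was also the one with the least of the intestinal markers. Of 18 intestinal markers 11 were lower and none higher in P-bodies, and of 15 muscle markers 12 were lower and none higher, and their part in these falls was not tested. The yolk protein message vit-2, made in the intestine, stood at 777, 255 and 464 CPM in oocytes and 186, 184 and 108 CPM in P-bodies (-1.65 ± 0.37, adjusted p = 0.00425, uncertain through an overlap on the opposite strand), but at 0.92 with library totals.

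The remaining falls were of protein synthesis and folding. The message of rla-0, the stalk protein P0 of the large ribosomal subunit (WBGene00004408, I 10567894 to 10569019), stood at 246, 190.0 and 171 CPM in oocytes and 19.2, 22.2 and 14.9 CPM in P-bodies (-3.43 ± 0.19, adjusted p = 2.87e-08, and -0.91 with library totals). Similar falls were measured for its partner rla-1 (-2.94 ± 0.18, and -0.41 with library totals), for ubl-1, a ubiquitin-like fusion with a ribosomal protein (-3.20 ± 0.17, and -0.68), and for rack-1, a scaffold on the ribosome (-2.82 ± 0.16, and -0.30, adjusted p = 0.0769). The ribosome biogenesis factor lpd-7 (-2.85 ± 0.12, and -0.34) and the chaperone hsp-3 of the endoplasmic reticulum (-3.15 ± 0.15, and -0.64) also fell. Of the 12 genes 10 were also called lower with library totals, far-2 and rack-1 being the exceptions. The values of rla-1 and rack-1 are uncertain because another gene overlaps each.

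The 163 genes lower on both scales were a small and uneven set. Ribosomal protein genes made up 49 of them, mitochondrially encoded mRNAs 12, eggshell genes 2 and chaperones 2, and 98 were in none of the 41 lists. Of 80 ribosomal protein genes tested (81 listed) 79 were lower and 1 higher relative to the typical gene (none higher without the first or the third P-body library), with a median of -3.04. The exception was rpl-41.1, at a mean of 0.673 CPM in oocytes and 1.59 CPM in P-bodies, chosen after its values were seen (1.21 ± 0.43, adjusted p = 0.0288). With library totals 49 were lower and 7 higher, with a median of -0.52. The member with the largest fall, rpl-14, stood at 53.6, 54.4 and 53.1 CPM in oocytes and 4.39, 3.46 and 3.07 CPM in P-bodies (-3.88 ± 0.15, and -1.38 with library totals, uncertain through an overlap on the opposite strand). The 12 mRNAs encoded in mitochondria were all lower on both scales, with log2 fold changes of -5.97 to -5.23 and medians of -5.53 and -3.0. The cytochrome oxidase message ctc-1, for example, stood at 163, 144 and 289 CPM in oocytes and 3.89, 2.57 and 6.97 CPM in P-bodies.

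Among lists of genes, counts of members are read against the 27.8% higher and 27.6% lower of all genes tested, and the median against -0.02. These shares vary with the level of a gene. Over 8 bins of equal size by level per length, the share called higher went from 4.57% in the lowest to 51% in the highest. The share called lower was 17.9% in the lowest bin, 35.7% in the fifth, 25.8% in the seventh and 29.3% in the highest. The lists were chosen with earlier results of these data known, so no test was made of any list.

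**Figure D3:**
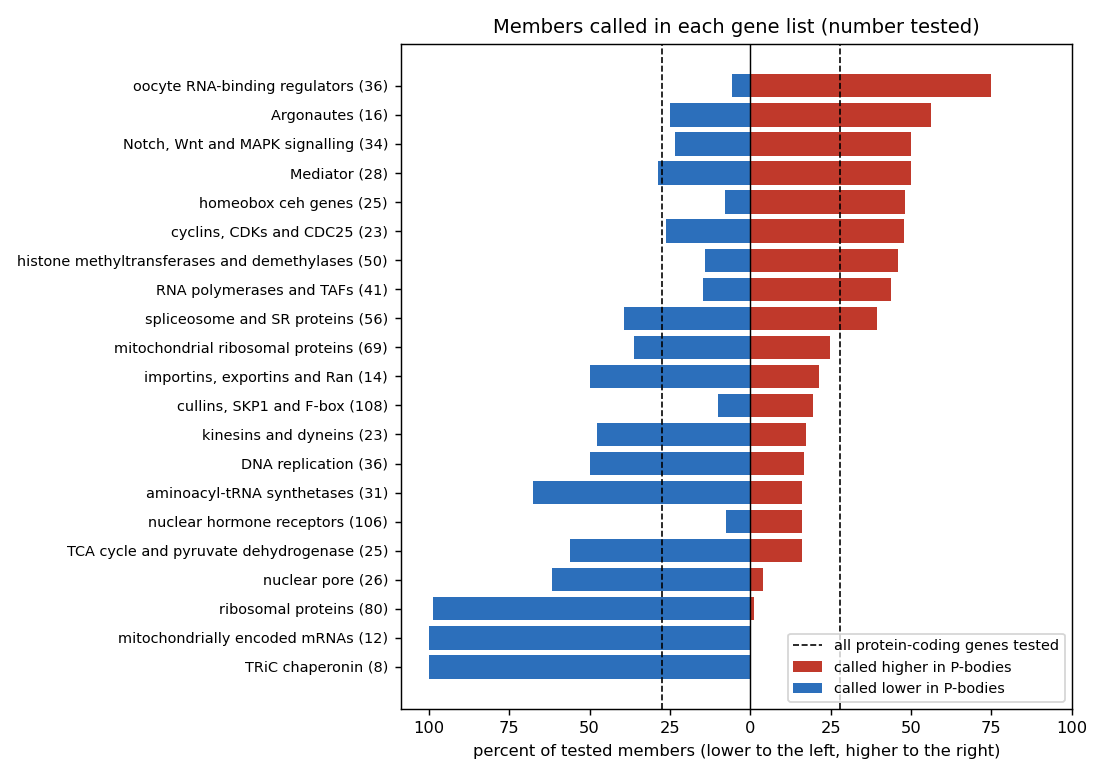
Percent of tested members of each gene list called higher (red, right) and lower (blue, left) in P-bodies, TMM scaling, with the number tested in parentheses. Dashed lines mark the 27.8% higher and 27.6% lower of all protein-coding genes tested, and lists run from oocyte RNA-binding regulators at the top to the TRiC chaperonin at the bottom.

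Most messages for the proteins that control mRNAs in oocytes rose. Of 38 oocyte RNA-binding regulators 36 were tested, and 27 rose and 2 fell, with a median of 0.96 (3.47 with library totals). The early embryonic regulator spn-4 (WBGene00004984, V 6783187 to 6784922) stood at 254, 245 and 254 CPM in oocytes and 844, 948 and 926 CPM in P-bodies (1.85 ± 0.11, uncertain through an overlap on the opposite strand). The CPEB homologs cpb-1 (13.4, 8.56 and 13.1 CPM against 38.8, 44.3 and 40.7) and cpb-3 (56.7, 58.7 and 53.9 against 164, 174 and 171) rose by 1.81 ± 0.15 and 1.59 ± 0.09. The La-related protein larp-1 rose by 1.29 ± 0.11, and mex-5, a zinc finger protein of embryonic polarity, by 1.08 ± 0.12. In the other direction rnp-8, a partner of the poly(A) polymerase GLD-2, fell by 0.54 ± 0.10 but lay at 1.97 with library totals. The messages of the tagged proteins were measured too. The tagged car-1 stood at 297, 328 and 211 CPM in oocytes and 173, 204 and 152 CPM in P-bodies (-0.66 ± 0.16, and 1.85 with library totals). Without the second oocyte library its value was -0.42. The tagged pgl-1 (0.13 ± 0.13, adjusted p = 0.42) and the helicase cgh-1 (0.12 ± 0.12, adjusted p = 0.402) overlapped between the groups and did not pass, and passed at 0.37 and 0.30 without the second oocyte library.

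Among Argonautes, the proteins that carry small RNAs to their targets, some rose and some fell. Their share of rises was above the 27.8% of all genes tested, and their share of falls was near the 27.6%. Of 20 members 16 were tested, 9 rose and 4 fell, with a median of 0.37 (2.88 with library totals). The microRNA Argonaute alg-1 stood at 8.86, 8.06 and 10.5 CPM in oocytes and 22.3, 25.5 and 23.7 CPM in P-bodies (1.37 ± 0.13). The nuclear Argonaute nrde-3 rose by 1.2 ± 0.10. In contrast csr-1, a germline Argonaute that binds small RNAs against expressed genes, stood at 68.3, 63.3 and 63.6 CPM in oocytes and 15, 14.9 and 14.6 CPM in P-bodies (-2.13 ± 0.09, and 0.38 with library totals, uncertain through an overlap on the same strand). The related ppw-1 fell by 2.33 ± 0.15 (0.18 with library totals).

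Signalling genes changed in both directions, with a share of rises above the 27.8% of all genes tested and a share of falls under the 27.6%. Of 35 members of Notch, Wnt and MAPK signalling 34 were tested, 17 rose and 8 fell, with a median of 0.36 (2.87 with library totals). The Notch ligand apx-1 stood at 25, 24 and 27 CPM in oocytes and 66.9, 69.5 and 68.0 CPM in P-bodies (1.42 ± 0.09). The Notch receptor glp-1 stood at 136, 155 and 132 CPM in oocytes and 318, 346 and 358 CPM in P-bodies (1.27 ± 0.10), and lag-1, the transcription factor of the pathway, rose by 1.19 ± 0.10. The Wnt ligand mom-2 rose by 1.44 ± 0.11 and its Frizzled receptor mom-5 by 1.77 ± 0.15. The libraries of both groups were separate for each of these messages, and glp-1, lag-1 and mom-5 are uncertain, since each is overlapped on the opposite strand. Falls were measured for kin-19, a casein kinase 1 (-1.19 ± 0.13, and 1.33 with library totals), for pop-1, the TCF factor at the end of Wnt signalling (-0.77 ± 0.15, and 1.72), and for sup-17, the protease that cuts Notch (-0.87 ± 0.10, and 1.64). The value of pop-1 was -0.44 without the second oocyte library.

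Cell cycle regulators of the cyclin type also changed in both directions. The share that rose was above the 27.8% of all genes tested, and the share that fell was near the 27.6%. Of 25 cyclins, CDKs and CDC25 phosphatases 23 were tested, 11 rose and 6 fell, with a median of 0.20 that became 0.36 to 0.45 without single oocyte libraries (2.70 with library totals). The B-type cyclin cyb-3 stood at 139, 136 and 134 CPM in oocytes and 350.0, 316 and 336 CPM in P-bodies (1.29 ± 0.10). The phosphatase cdc-25.3 rose by 1.72 ± 0.14, uncertain through an overlap on the opposite strand. The transcription elongation kinase cdk-9 fell by 1.02 ± 0.13 (1.48 with library totals).

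Enzymes that modify histones and the histones themselves were counted separately. Of 49 histone genes tested (82 listed, many near-identical copies and so uncertain) 30 fell and 5 rose, with a median of -1.91 (0.65 with library totals). Of 55 histone methyltransferases and demethylases 50 were tested, 23 rose and 7 fell, with a median of 0.38 (0.66 without the third oocyte library, 2.89 with library totals). Beside rbr-2, the demethylase lsd-1 stood at 8.04, 8.86 and 9.14 CPM in oocytes and 30.5, 33.6 and 33.1 CPM in P-bodies (1.90 ± 0.11). The methyltransferase set-1, which acts on lysine 20 of histone H4, stood at 50.1, 42 and 40.0 CPM in oocytes and 125, 147 and 144 CPM in P-bodies (1.65 ± 0.13). Rises were also measured for set-15 (2.32 ± 0.20), set-17 (2.08 ± 0.15), the demethylase jmjd-2 (1.91 ± 0.18) and set-26 (1.33 ± 0.19). Other members of both enzyme classes fell. The methyltransferase met-2, which acts on lysine 9 of histone H3, fell by 1.18 ± 0.10 (1.33 with library totals), and the demethylases spr-5, a second LSD1 homolog, and jmjd-1.2 fell by 1.14 ± 0.12 and 1.89 ± 0.12 (1.35 and 0.61 with library totals).

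Of 63 homeobox ceh genes 25 were tested, 12 rose and 2 fell (1 without the first or the third P-body library), with a median of 0.93 (3.43 with library totals). The list's median was -0.54 on log2(TPM + 1) relative to the median gene, and the cause of this change of sign was not tested. The most abundant of its rises, ceh-38 of the ONECUT class, stood at 38.3, 46.9 and 42.3 CPM in oocytes and 132, 141 and 151 CPM in P-bodies (1.73 ± 0.10, uncertain through an overlap on the opposite strand), and its relative ceh-39 rose by 1.25 ± 0.14. In the other direction ceh-92 fell by 1.46 ± 0.10 (1.05 with library totals). Of 269 nuclear hormone receptors 106 were tested, 17 rose, 8 fell (29 rose without the third oocyte library) and 81 were not called. The 17 and the 8 were smaller shares than the 27.8% higher and 27.6% lower of all genes tested, but the median was 0.45 (2.92 with library totals). Those shares were not matched for level, and 163 of the receptors did not pass the filter on low counts. In the lowest level bin only 4.57% of genes were called higher. Of the receptors, nhr-23, needed for moulting, went from 19.4, 15.5 and 14.9 CPM to 48.7, 60.4 and 50.8 CPM (1.69 ± 0.12). The receptor nhr-20 rose by 2.04 ± 0.13 (uncertain through an overlap on the opposite strand). The regulator of fat metabolism nhr-49 fell by 0.54 ± 0.10 (1.98 with library totals).

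Genes of the general transcription apparatus changed in both directions as well. For Mediator and for RNA polymerases and TAFs the share of rises was above the 27.8% of all genes tested. Their falls were near the 27.6% for Mediator and under it for RNA polymerases and TAFs. Of 28 Mediator genes, whose complex links transcription factors to RNA polymerase II, 14 rose and 8 fell, with a median of 0.42 (2.92 with library totals). The subunit mdt-26 stood at 75.7, 81.7 and 73.9 CPM in oocytes and 205, 275 and 244 CPM in P-bodies (1.65 ± 0.13), and mdt-6 rose by 0.85 ± 0.11. The subunit dpy-22, the MED12 homolog, fell by 0.63 ± 0.12 (1.87 with library totals, and -0.39 without the second oocyte library), and mdt-29 by 0.91 ± 0.12 (1.59 with library totals, uncertain through an overlap on the same strand). Of 41 genes of RNA polymerases and TAFs 18 rose and 6 fell (3 without the second oocyte library), with a median of 0.19, or 0.46 without that library (2.69 with library totals). The small subunits rpac-19 and rpb-4 rose by 1.54 ± 0.19 and 1.02 ± 0.15. The large subunit of RNA polymerase II, ama-1, stood at 159, 164 and 122 CPM in oocytes and 68.7, 68.5 and 67.1 CPM in P-bodies (-1.12 ± 0.12, and 1.39 with library totals). Of 56 spliceosome and SR protein genes 22 rose and 22 fell. The splicing factor prp-17 rose by 1.70 ± 0.12 and the SR protein rsp-8 by 1.49 ± 0.11, and the helicase emb-4 fell by 1.74 ± 0.10 (0.77 with library totals, uncertain through an overlap on the opposite strand).

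Lists of the nuclear envelope, chromosome replication and motors leaned lower relative to the typical gene, and their medians turned positive with library totals. Of 26 nuclear pore genes 16 fell and 1 rose, with a median of -0.73 (1.77 with library totals). The Nup133 homolog npp-15 stood at 52.5, 54.2 and 48.3 CPM in oocytes and 14.2, 13.6 and 15.3 CPM in P-bodies (-1.85 ± 0.10, and 0.66 with library totals). The genes npp-9, of the Nup358 class, and npp-10, which encodes Nup98 and Nup96, fell by 1.13 ± 0.13 and 1.01 ± 0.10 (1.38 and 1.49 with library totals), and npp-8, the Nup155 homolog, rose by 0.91 ± 0.14. Of 14 importins, exportins and Ran genes 7 fell and 3 rose, with imb-3 at -1.09 ± 0.16 (1.43 with library totals) and the importin alpha ima-3 at 0.75 ± 0.11. The values of npp-8, npp-9 and ima-3 are uncertain, since each is overlapped on the opposite strand.

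Of 36 DNA replication genes 18 fell and 6 rose, with a median of -0.33 (2.19 with library totals). The large subunit of ribonucleotide reductase, rnr-1, stood at 98.7 to 128 CPM in oocytes and 31.7 to 32.6 CPM in P-bodies (-1.84 ± 0.11, and 0.67 with library totals). Initiation factors were among the rises, with sld-2 at 1.90 ± 0.14 and orc-1, of the origin recognition complex, at 1.45 ± 0.11. Of 33 kinesins and dyneins 23 were tested, 11 fell and 4 rose, with a median of -0.35 (2.17 with library totals). The mitotic kinesins bmk-1 (kinesin-5) and klp-19 fell by 1.46 ± 0.09 and 0.81 ± 0.12 (1.05 and 1.70 with library totals), and the cytokinesis kinesin zen-4 had 1.47 ± 0.10. The values of klp-19 and zen-4 are uncertain, since each is overlapped on the opposite strand. Of 358 cullin, SKP1 and F-box genes 108 were tested, 21 rose and 11 fell (7 without the third oocyte library), with fbxa-215 at 1.57 ± 0.13 and cul-1 at -1.15 ± 0.11 (1.36 with library totals). The 21 and the 11 were smaller shares than the 27.8% higher and 27.6% lower of all genes tested, and 76 were not called. These shares were not matched for level, and 250 members did not pass the filter on low counts. The list's median was 0.25 (2.76 with library totals).

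Most genes of the chaperonin and of the aminoacyl-tRNA synthetases fell relative to the typical gene. All 8 subunits of TRiC, the cytosolic chaperonin of actin and tubulin, fell, with log2 fold changes of -2.78 to -1.16 and a median of -1.65. With library totals the median was 0.86, and 7 subunits were higher and none lower. The subunit cct-5 stood at 86.5, 92.5 and 69.1 CPM in oocytes and 12.4, 12.6 and 11.2 CPM in P-bodies (-2.78 ± 0.15, and -0.27 with library totals, adjusted p = 0.127). Of 31 aminoacyl-tRNA synthetases, which charge tRNAs with amino acids, 21 fell and 5 rose (3 rose without the second or the third P-body library or the third oocyte library), with a median of -0.83 (1.67 with library totals). The glutamyl enzyme ears-1 stood at 65.3, 80.1 and 65.6 CPM in oocytes and 17, 16 and 15.9 CPM in P-bodies (-2.11 ± 0.10, and 0.39 with library totals, uncertain through an overlap on the same strand). The arginyl and leucyl enzymes rars-1 (uncertain, overlapped on the opposite strand) and lars-1 fell by 2.04 ± 0.10 and 1.74 ± 0.10 (0.46 and 0.78 with library totals). An exception was the valyl enzyme vars-1, which stood at 22.5, 23 and 22.7 CPM in oocytes and 59.1, 60.6 and 70.6 CPM in P-bodies (1.48 ± 0.11).

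Of 25 genes of the TCA cycle and pyruvate dehydrogenase 14 fell and 4 rose (2 rose without the second or the third P-body library or the third oocyte library), with a median of -0.76 (1.76 with library totals). The ATP-forming and GTP-forming versions of succinyl-CoA synthetase went opposite ways. The message of suca-1 stood at 9.29, 11.8 and 11.2 CPM in oocytes and 1.75, 2.08 and 1.54 CPM in P-bodies (-2.59 ± 0.16, and -0.09 with library totals, adjusted p = 0.696), and that of sucg-1 at 30.1, 29.9 and 23.6 against 48.0, 55.5 and 49.6 CPM (0.88 ± 0.12). Of 69 mitochondrial ribosomal proteins 25 fell and 17 rose. Among them mrps-27 fell by 1.71 ± 0.13 (0.80 with library totals) and mrps-18B rose by 1.06 ± 0.18, both uncertain because another gene overlaps each.

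Levels per length, in TPM over all genes including ribosomal RNA, showed which mRNAs the granules held most of. In P-bodies spn-4 came first at 4400 ± 430 TPM (SD, n = 3), followed by clec-87, a lectin-domain protein (3840 ± 456), sip-1, a small heat shock protein (3780 ± 339), cpg-1, a chondroitin proteoglycan of the eggshell (3300 ± 306), pos-1, a zinc finger protein of germline fate (2970 ± 137), and htz-1, the histone variant H2A.Z (2320 ± 481). In oocytes the order was sip-1 (1690 ± 623), the elongation factor eef-1A.1 (1670 ± 437), histone his-67 (1430 ± 669, uncertain as one of a family of near-identical copies), cpg-1 (864 ± 295), rpl-25.2 (704 ± 51.5) and the Y-box protein cey-2 (681 ± 207). Neighbours in the order overlapped within 1 SD in both groups, except pos-1 and htz-1 in P-bodies.

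The most abundant messages changed in both directions. Relative to the typical gene, clec-87 went from 152, 185 and 183 CPM to 486, 386 and 508 CPM (1.40 ± 0.14, uncertain through an overlap on the opposite strand), pos-1 rose by 1.53 ± 0.10 and htz-1 by 1.16 ± 0.18. In contrast sip-1 stood at 645, 834 and 655 CPM in oocytes and 326, 343 and 300.0 CPM in P-bodies (-1.14 ± 0.14, and 1.36 with library totals). The elongation factor eef-1A.1 went from 2180, 1750 and 1270 CPM to 260.0, 283 and 203 CPM (-2.80 ± 0.22, and -0.27 with library totals, uncertain through an overlap on the opposite strand). The message of cpg-1 had -0.37 ± 0.14 (adjusted p = 0.0399, and 2.14 with library totals), but the call was lost without any single P-body library and without the first or the second oocyte library (-0.41 to -0.14).

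**Figure D4:**
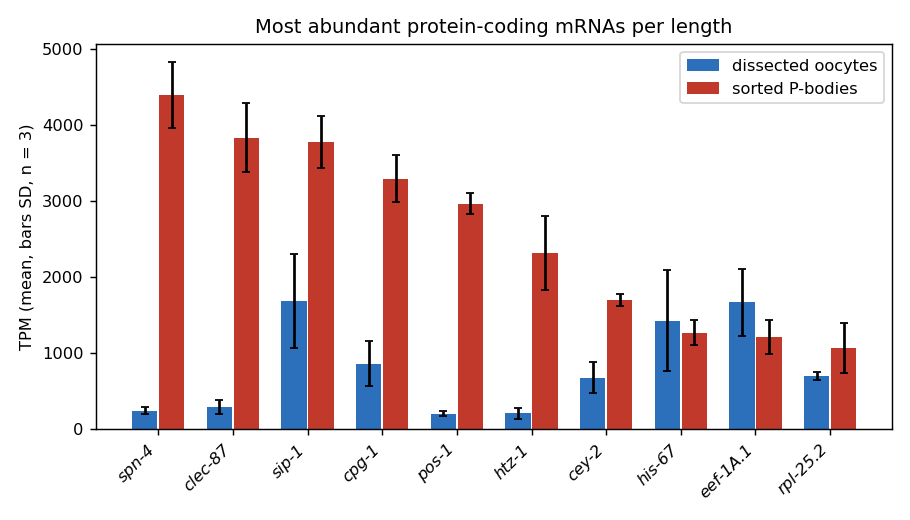
TPM (vertical axis, linear from 0, mean of 3 libraries with SD) of the 6 protein-coding mRNAs highest in P-bodies and the 6 highest in oocytes, of which sip-1 and cpg-1 are in both sets. Oocytes are blue and P-bodies red, and spn-4 is highest in P-bodies (4400) while it stands at 245 in oocytes. These TPM include ribosomal RNA, whose share differs between the groups. Relative to the typical mRNA the log2 fold change was 1.85 for spn-4 and -1.14 for sip-1.

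Annotated 3′ untranslated regions (UTRs) were longer in genes at least 2-fold higher in P-bodies than in those at least 2-fold lower. The median annotated 3′ UTR was 191 bases among genes at least 2-fold higher, 123 among those at least 2-fold lower and 152 among all genes tested, while median coding lengths were 1155, 1275 and 1212 bases. Among genes at least 4-fold higher or lower the medians of the 3′ UTR were 147 and 89 bases, so the higher genes then lay just under the median of all genes. In 8 bins of 3′ UTR length, the share of genes called higher went from 15.1% in the shortest (1 to 65 bases) to 36.2% in the longest (446 to 3657 bases), whereas the share called lower stayed between 26.3% and 29.8%. The median log2 fold change went from -0.35 to 0.14 (2.13 to 2.65 with library totals). Across 9027 genes with an annotated 3′ UTR Spearman's rho with the log2 fold change was 0.113, a weak relation across genes, which are not independent replicates and share the same 6 libraries. By coding length, 40.0% of genes in the longest bin (2691 bases and more) were lower against 19.9% in the second shortest (522 to 756 bases).

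**Figure D5:**
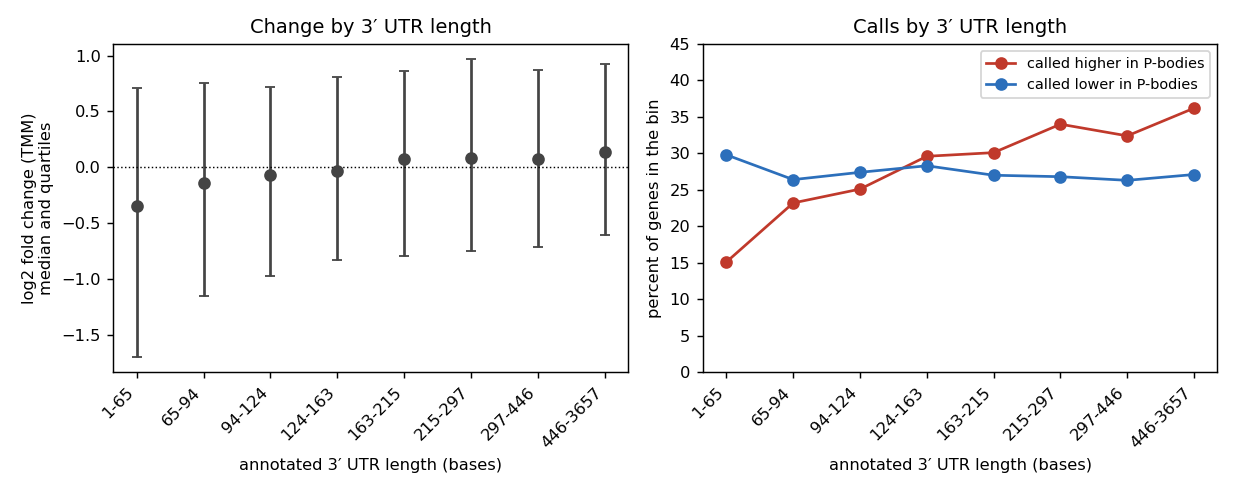
Protein-coding genes in 8 bins of equal size by annotated 3′ UTR length in bases (horizontal axes). The left panel gives the median and quartiles of the log2 fold change (TMM), and the right panel the percent of each bin called higher (red, 15.1% to 36.2%) or lower (blue).

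The same held per library when each transcript was weighted by its TPM. The weighted mean 3′ UTR was 273.5, 277.7 and 278.9 bases in P-body libraries and 218.1, 226.9 and 224.3 bases in oocyte libraries, without overlap. The difference of 53.56 bases had p = 0.1 by a two-sided exact permutation test, the smallest that 3 against 3 allows (adjusted over 5 features 0.1). Without ribosomal protein, histone, vitellogenin and mitochondrial genes the difference was 23.84 bases. The weighted mean coding length was 1557 ± 18.5 bases in P-bodies and 1468 ± 22.4 in oocytes (exact permutation p = 0.1, n = 3 each), but without those genes the difference turned from 88.6 to -57.36 bases.

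By chromosome, the share of tested genes called higher was 31.3% on I, 29.8% on II, 29.4% on III, 27.6% on IV, 23.9% on V and 23.5% on X. The share called lower was 26.4% to 28.0% on all 6. The chromosomes also differed in how many of their genes were measurable, from 32.1% on V to 67.7% on III.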

How the data were processed

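Deposited values were used as the starting point. The raw counts per gene are HTSeq read counts by the authors, made from reads aligned with HISAT2 2.1.0 to WBcel235, per the submitters' processing notes and the file headers. The TPM are StringTie values that the authors deposited, per the file headers. The FPKM and the mean coverage that the authors deposited beside them were not used here. The strand setting of the counting is not given in the sources used here, so overlapping genes are called uncertain.

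All 9 libraries in 3 groups entered edgeR 4.0.16 (quasi-likelihood test, TMM, robust, filterByExpr with a minimum count of 10, Benjamini-Hochberg adjustment over 10162 genes, threshold 0.05) in R 4.3.3, and the contrast was P-bodies minus oocytes. Every adjusted p is from that edgeR fit unless another scaling is named. limma 3.58.1 was used on log2(TPM + 1), and DESeq2 1.42.0, other normalizations and filters, thinned counts and left-out libraries were alternatives. Scripts were tested on simulated data. Gene types, coordinates and lengths came from Ensembl release 115 (46603 of 46778 identifiers matched). Analyses ran in Python 3.11.15 with scipy 1.17.1.

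Members and gene lists were chosen with earlier results of these data known. Named genes are nuclear genes with a class symbol. They comprise the 12 largest changes in each direction with a mean of at least 50 CPM and no overlap between libraries (leaving out msp, his, rpl and rps genes), the largest rise and fall of each described list at 10 CPM or more, the 6 highest by TPM in each group, the 6 largest falls on library totals, and a preset of maternal and granule genes. A further 32 list members, among them cpb-1, apx-1 and lsd-1, were named after their values were seen. Sequence features that need a genome were not analysed here.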

Additional observations from a re-analysis of the deposited data

How the results depend on the processing

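The choice of scaling moved most results, and the other alternatives moved few. Calls were 7894 higher and 163 lower with library totals, 7989 and 164 on log2(TPM + 1), 7986 and 166 on log2(TPM + 0.1), and 6761 and 133 with a mean TPM of at least 1. At least 2-fold calls were 7679 and 108, 6441 and 78, 7704 and 126, and 6239 and 72 in the same order. Leaving out 1 library gave 2283 to 2907 higher and 2183 to 2548 lower. With only the 6 libraries in the fit, 9078 protein-coding genes were tested, 2648 higher and 2276 lower.

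With library totals these log2 values turned positive: rnp-8 1.97, csr-1 0.38, kin-19 1.33, rnr-1 0.67, mrps-27 0.80, ears-1 0.39, npp-15 0.66, imb-3 1.43, emb-4 0.77, mdt-29 1.59, ama-1 1.39, jmjd-1.2 0.61, cul-1 1.36, cdk-9 1.48, ppw-1 0.18, nhr-49 1.98, ceh-92 1.05, bmk-1 1.05, sip-1 1.36, cpg-1 2.14, his-67 0.03, rpl-25.2 0.76, cey-2 1.51, car-1 1.85, rme-2 1.71, cbd-1 1.89, sup-17 1.64, pop-1 1.72, met-2 1.33, spr-5 1.35, dpy-22 1.87, rars-1 0.46, lars-1 0.78, npp-9 1.38, npp-10 1.49 and klp-19 1.70. So did the medians of DNA replication (2.19), TCA cycle (1.76), aminoacyl-tRNA synthetases (1.67), TRiC (0.86), nuclear pore (1.77) and kinesins (2.17). The homeobox ceh median was -0.54 on log2(TPM + 1) relative to the median gene. Values near 0 changed sign with a stricter filter (cgh-1 -0.01, pgl-1 0.0, puf-5 -0.02) or thinned counts (puf-5 -0.01).

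Without ribosomal protein, histone, vitellogenin and mitochondrial genes the weighted differences were -31.13 bases for transcripts, -57.36 for coding length, 2.4 for 5′ UTRs, 23.84 for 3′ UTRs and 0.1572 exons. With the longest transcript of each gene they were 11.43 bases for 5′ UTRs and 63.24 for 3′ UTRs. The difference in the protein-coding share was 7.3 percentage points when ribosomal RNA was left out, against 55 with it. The cause of these differences was not tested.

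Samples with the same replicate number had correlated deviations of 0.119, 0.0544 and 0.096, and samples with unlike numbers had -0.175 to 0.0875. These values did not settle whether the numbers are pairs, and the main fit did not pair them. A replicate block gave 2727 genes higher and 2178 lower. GC content and 3′ UTR motifs were not analysed here. Depth limits genes at low counts in oocytes, where the protein-coding totals were lowest.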

Other observations

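Small noncoding RNAs that the counts also cover were lower in P-bodies. Over all 10162 genes tested 26.7% were higher and 28.8% lower. Of 26 tRNA genes tested all 26 were lower (median log2 fold change -9.11, and -6.96 with library totals). Of 125 snoRNA genes, which guide the modification of ribosomal RNA, 121 were lower and 1 higher (median -6.51, and -3.91), and of 28 snRNA genes of the spliceosome 22 were lower and none higher (median -3.06, and -0.49). Of 240 pseudogenes 55 were lower and 24 higher, shares under those of all genes (median -0.47, and 2.03 with library totals).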
